A study of Drosophila melanogaster with 2 samples.

Results

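The microRNA genes of the fruit fly were examined for Abd-B-GFP peaks nearby. Members were the entries of the Ensembl/FlyBase annotation of build dm6 whose symbol begins with mir- (bantam is listed there as mir-ban), 1 entry per hairpin, on the main chromosome arms. The annotation held 262 such genes, of which 260 lay on the main arms, among 17683 genes of any kind there. Their hairpins, the folded precursors from which the mature RNA is cut, were 50 to 174 bases long with a median of 92. Hairpins on the same strand and no more than 10000 bp apart formed 203 loci, of which 22 held 2 or more hairpins and together 79 of the 260.

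The data came from ChIP-seq on whole embryos aged 4 to 20 h in 2 biological replicates of 1 group. The embryos belonged to a stable transgenic line that carries Abd-B fused at its C terminus to GFP, and chromatin sheared by sonication to 200 to 800 bp was precipitated with an antibody against GFP. Abd-B is the most posterior homeodomain protein of the bithorax complex. The labels state neither whether untagged Abd-B was also present nor which regulatory sequence drives the fusion, and whole embryos do not show in which cells a site was bound. Nothing in the labels describes how the embryos of the replicates were collected, so the difference between the replicate lists may be partly technical.

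A microRNA is transcribed as part of a longer RNA, either from a promoter of its own or within a host gene, and hairpins that lie close together are often cut from 1 transcript. The mature strand guides a silencing complex to messenger RNAs that pair with its seed, bases 2 to 8, and lowers their output. In the fly embryo microRNAs are known for clearing maternal messages, for restraining Hox and proapoptotic genes, and for setting the number of sensory organs and neurons. A peak near a hairpin records where Abd-B-GFP chromatin was recovered, not whether the microRNA is regulated.

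Mature sequences are shown for the microRNAs on which the results below turn, read from the RefSeq genome (Release 6, the sequence of dm6), 5′ to 3′, with the seed in capitals. The bithorax microRNAs come first, because their hairpins are the opposite strands of the same bases, chr3R:16856275-16856342, and yield different seeds. The other sequences follow by role: sensory organs and neurons (mir-279, mir-996, mir-9a), the neuroblast pair mir-92a and mir-92b, growth (mir-ban), the K box family, which pairs with proapoptotic messages (mir-2b-2, mir-13a, mir-11), and metabolism and gut (mir-275, mir-305, mir-33). The last 3, mir-282, mir-375 and mir-303, had a summit within 1 kb.
mir-iab-4 hairpin: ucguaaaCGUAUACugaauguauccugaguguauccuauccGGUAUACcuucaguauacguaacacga
mir-iab-8 hairpin: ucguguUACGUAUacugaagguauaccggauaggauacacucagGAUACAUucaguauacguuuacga
mir-iab-4 5p: aCGUAUACugaauguauccuga
mir-iab-4 3p: cGGUAUACcuucaguauacguaac
mir-iab-8 5p: uUACGUAUacugaagguauaccg
mir-iab-8 3p: gGAUACAUucaguauacguuua
mir-279 3p: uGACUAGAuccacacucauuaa
mir-996 3p: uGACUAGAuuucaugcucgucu
mir-9a 5p: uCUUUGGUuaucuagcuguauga
mir-92a 3p: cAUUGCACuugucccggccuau
mir-92b 3p: aAUUGCACuagucccggccugc
mir-ban 3p: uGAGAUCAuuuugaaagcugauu
mir-2b-2 3p: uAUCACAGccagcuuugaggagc
mir-13a 3p: uAUCACAGccauuuugaugagu
mir-11 3p: cAUCACAGucugaguucuugc
mir-275 3p: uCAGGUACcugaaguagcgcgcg
mir-305 5p: aUUGUACUucaucaggugcucug
mir-33 5p: gUGCAUUGuagucgcauuguc
mir-282 5p: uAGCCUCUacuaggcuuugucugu
mir-375 3p: uUUGUUCGuuuggcuuaaguua
mir-303 5p: uUUAGGUUucacaggaaacuggu

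Genomic sequence is shown for the 101 bases centred on 6 summits of the list kept by the authors for its irreproducible discovery rate between replicates (IDR). They are the highest ranked summit near any hairpin (rank 109, mir-279 and mir-996), the highest ranked within 1 kb (257, mir-282; 344, mir-92a), the summit nearest to the bithorax hairpin (3478), the one downstream of mir-275 and mir-305 (3391) and the higher ranked one at bantam (1084). Each is the plus strand of dm6 from RefSeq Release 6, 5′ to 3′. Capitals mark matches, on either strand, to TTTATGG or TTTATTG, a pair of forms that Abd-B is known to bind, to the Hox core TAATTA, or to the promoter motif GGTCACAC, known as Motif 1.
mir-279 and mir-996, chr3R:29214406-29214506: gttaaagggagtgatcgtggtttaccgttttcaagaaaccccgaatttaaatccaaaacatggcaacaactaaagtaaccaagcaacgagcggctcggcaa
mir-282, chr3L:3250204-3250304: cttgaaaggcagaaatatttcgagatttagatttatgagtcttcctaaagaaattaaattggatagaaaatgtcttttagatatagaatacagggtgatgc
mir-92a, chr3R:25647007-25647107: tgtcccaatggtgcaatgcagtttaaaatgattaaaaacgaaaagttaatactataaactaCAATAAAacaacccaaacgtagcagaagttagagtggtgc
mir-iab-4 and mir-iab-8, chr3R:16858311-16858411: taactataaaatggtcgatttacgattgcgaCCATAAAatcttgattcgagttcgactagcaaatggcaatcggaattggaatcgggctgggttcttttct
mir-275 and mir-305, chr2L:7426574-7426674: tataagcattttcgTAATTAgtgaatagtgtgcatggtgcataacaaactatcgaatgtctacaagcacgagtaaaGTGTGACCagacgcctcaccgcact
bantam, chr3L:644259-644359: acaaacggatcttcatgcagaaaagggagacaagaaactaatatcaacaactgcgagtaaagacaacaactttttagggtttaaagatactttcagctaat

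The 4 lists were 1 per replicate, 1 from both replicates pooled, each of 30000 peaks, and the IDR list of 5033 peaks. Peaks have no read counts, so the depth behind them is unknown. The signal of a peak is the authors' own value on a scale that the labels do not state, and it served here only to rank peaks within a list, rank 1 being the strongest. At a q-value of 0.05 or less there were 4333 peaks in replicate 1, 8557 in replicate 2 and 6677 in the pooled list, so most entries of the full lists are weak. All intervals below are 95% Wilson intervals that cover counting error only.

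An IDR summit lay within 1 kb of 21 of the 260 hairpins, 8.08% (5.34 to 12.0%), while 6.86% of all bases of the main arms lay as close to a summit. Within 5 kb were 92 hairpins, 35.4% (29.8 to 41.4%), against 25.9% of bases. These intervals treat hairpins of a locus as independent, so they do not show whether either share differs from that of bases. Of bases inside genes, where 209 of the hairpins lay, 29.4% were within 5 kb. Counted by locus, 18 of 203 loci (8.87%) had a summit within 1 kb and 71 (35.0%) within 5 kb. The starts of protein-coding genes had higher shares: 23.2% of the 5′ ends of 13945 protein-coding genes lay within 1 kb of an IDR summit and 43.1% within 5 kb. Among 2520 other noncoding RNA genes 12.8% of 5′ ends lay within 1 kb and 35.3% within 5 kb. These shares were not compared by a test, since hairpins of a locus share their summits.

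**Figure D1:**
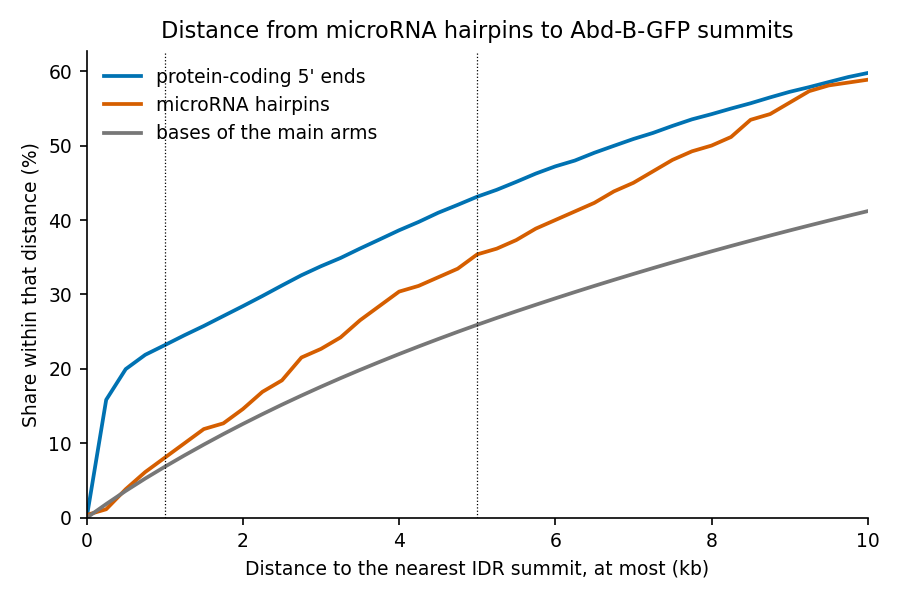
Share of microRNA hairpins (orange), of 5′ ends of protein-coding genes (blue) and of all bases of the main arms (grey) that lie within a given distance of an IDR summit, by that distance in kb; dotted lines mark 1 and 5 kb. The hairpins run near the bases up to 1 kb (8.08% against 6.86%) and above them at 5 kb (35.4% against 25.9%), below the 43.1% of protein-coding 5′ ends.

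The weaker lists covered far more of the genome. Pooled summits lay within 1 kb of 78 hairpins (30.0%) and 33.5% of bases, and within 5 kb of 185 (71.2%) and 70.9% of bases. In replicate 1 the counts were 85 hairpins (32.7%) beside 34.8% of bases at 1 kb, and 199 (76.5%) beside 75.9% at 5 kb. In replicate 2 they were 67 hairpins (25.8%) beside 32.8%, and 187 (71.9%) beside 69% of bases. The replicate 2 share at 1 kb had an interval of 20.8 to 31.4%, and counted by locus it was 57 of 203 loci (28.1%). As hairpins of a locus share summits, the differences between these shares and those of bases were not tested. Of the 260 hairpins, 155 had no summit within 1 kb in any list, and 45 had none within 5 kb.

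A hairpin lay inside an annotated gene in 209 cases and outside genes in 51. Within 5 kb of an IDR summit were 72 of the 209 (34.4%, 28.3 to 41.1%) and 20 of the 51 (39.2%, 27.0 to 52.9%). The share of bases within 5 kb was 29.4% inside genes and 18.1% outside. Within 1 kb were 15 (7.18%) inside and 6 (11.8%) outside. The intervals of the 2 classes overlap at both distances, and they treat hairpins of a locus as independent. Counted by locus, 61 of 175 (34.9%) inside and 12 of 33 (36.4%) outside had a summit within 5 kb. The 7 hairpins of the mir-310 cluster were among the 20 outside genes. Among the 136 hairpins with a protein-coding host on their own strand, 10 had a summit within 1 kb and 50 (36.8%) within 5 kb. For the 51 with a noncoding host on their own strand these counts were 5 and 16 (31.4%), and for the 36 with a host on the opposite strand 2 and 13 (36.1%). Hairpins in introns only, 117 in number, had 35.0% within 5 kb, and the 92 in an exon of a host 33.7%. The 79 hairpins of loci with 2 or more hairpins reached 41.8% within 5 kb and the 181 single ones 32.6%.

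**Figure D2:**
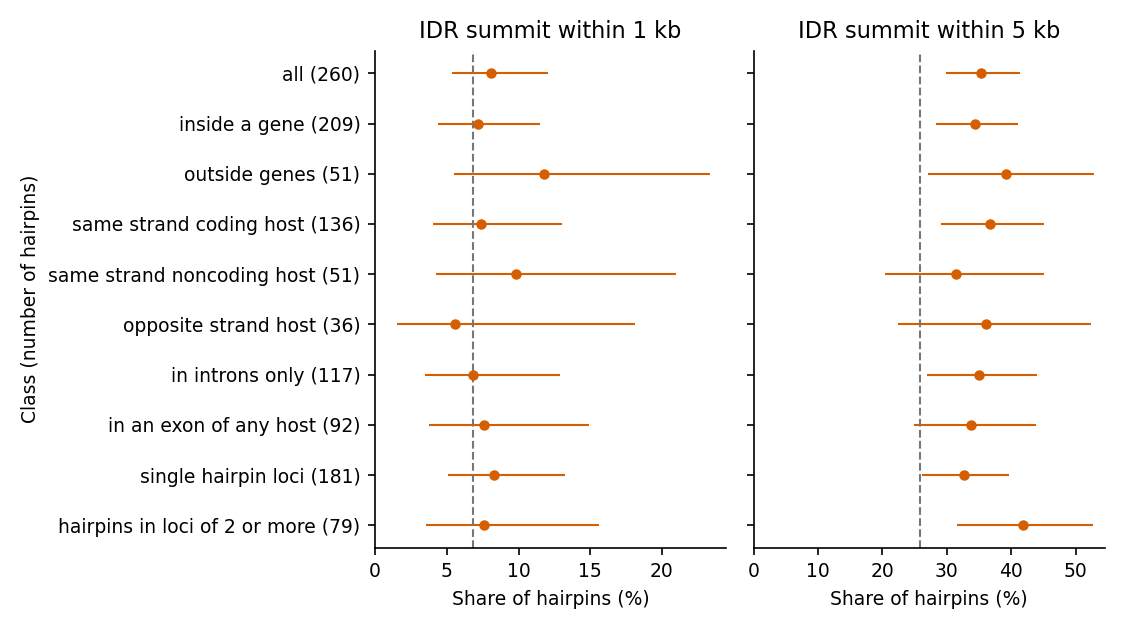
Share of hairpins of each class with an IDR summit within 1 kb (left) and 5 kb (right), in percent, with 95% Wilson intervals; classes overlap, and the dashed line is the share of all bases of the main arms. Hairpins inside genes (34.4%) and outside genes (39.2%) have overlapping intervals at 5 kb.

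The bithorax complex, from Ubx to Abd-B (chr3R:16656623-16972236), held 42 IDR summits and 193 pooled ones, with 178 in replicate 1 and 185 in replicate 2. The whole IDR list held 5033 summits on the 133880608 bases of the main arms. The microRNAs of the complex, mir-iab-4 and mir-iab-8, repress the Hox genes Ubx and abd-A. The shared hairpin lies in an exon of the long noncoding RNA iab4, read in the direction of mir-iab-4, and in an intron of the noncoding RNA iab8 and of MSAmiP on the opposite strand. No IDR summit lay within 1 kb. The nearest, at 16858361, was 2019 bp away, upstream of mir-iab-8 and downstream of mir-iab-4, in the intron of iab8 and MSAmiP. It ranked 3478 with a signal of 204.5 and had a partner in each replicate, at rank 2527 in replicate 1 and 4728 in replicate 2. Its window, shown above, holds 1 match to TTTATGG.

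Within 20000 bp of this hairpin lay 7 IDR summits. The strongest ranked 301 (signal 839) at 15164 bp, and the next ranked 1647 at 13105 bp, both on the side from which iab8 is transcribed. Farther on that side, outside the 20000 bp, a summit of rank 2826 lay 429 bp from a transcription start site (TSS) of iab8. On the other side the summits were weaker. They were rank 3736 at 5425 bp, 4875 at 8875 bp, 4599 at 10145 bp and 4781 at 15279 bp. That of rank 3736 lay in an exon of iab4, 612 bp from a TSS of iab4. Closer to the hairpin only low ranked summits were listed. The pooled list had one at 1115 bp (rank 13821), replicate 1 one at 109 bp (rank 14807) and replicate 2 one at 848 bp (rank 11301), and these 3 are not within 100 bp of each other. The hairpin itself was thus not near a summit that both replicates placed at the same position, and the nearest such summit was the one at 2019 bp.

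**Figure D3:**
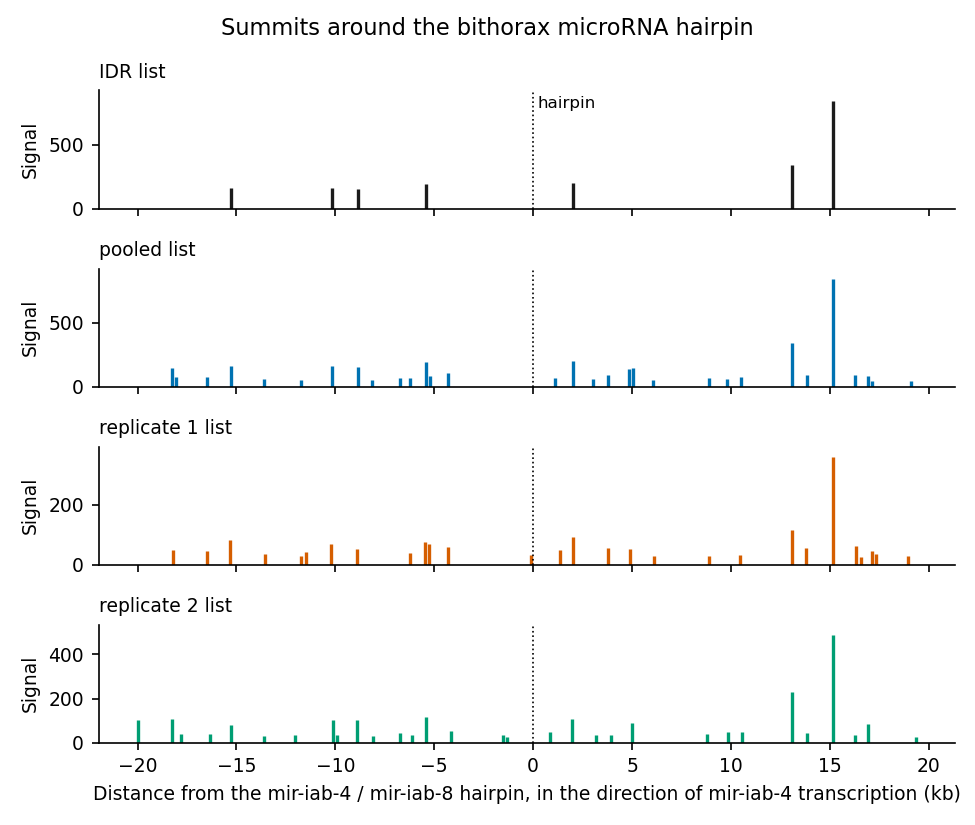
Summits within 20000 bp of the bithorax hairpin in the 4 lists, by distance in kb in the direction of mir-iab-4 transcription; line height is the authors' signal, whose scale differs between lists. The IDR summits of rank 301 and 1647 stand 15164 and 13105 bp away on the right, and the nearest, rank 3478, at 2019 bp.

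The other Hox cluster, from lab to Antp (chr3R:6661427-6999228), held 18 IDR summits, and its microRNAs mir-10 and mir-993 had none within 5 kb. The nearest IDR summit was 9216 bp from mir-10 (rank 3411) and 13250 bp from mir-993 (rank 533), the latter in the intron of Ama. For mir-993 a weak summit lay near in every full list: 478 bp away at rank 13871 in the pooled list, 498 bp at rank 12110 in replicate 1 and 396 bp at rank 21141 in replicate 2. Of the 4 Hox microRNAs, therefore, 2 had an IDR summit within 5 kb, against 35.4% of all hairpins, and it was the same summit.

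Sensory organ and neural microRNAs included the highest ranked summit near any hairpin. The mir-279 and mir-996 hairpins, which restrict the formation of carbon dioxide sensing neurons and share the seed GACUAGA, lie in exons of the noncoding RNA CR31044 at chr3R:29215585-29217280. A summit at 29214456 ranked 109 (signal 1232), with ranks 77 and 161 in replicates 1 and 2. It lay 106 bp upstream of the start of CR31044, 1129 bp from mir-279 and 2728 bp from mir-996. A weaker summit (rank 2153; 2308 and 2109 in the replicates) lay downstream, 42 bp upstream of a TSS of eEF1gamma, a translation elongation factor. Both summits were thus at annotated transcription start sites, that of the microRNA's own transcript being the stronger.

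For mir-9a, which limits sensory organ precursors by repressing senseless, a summit of rank 266 (signal 874; ranks 317 and 265 in the replicates) lay 4311 bp upstream, in an exon of the noncoding RNA CR44676 and 1816 bp from the nearest TSS of its host CR45916. The other mir-9 hairpins with the seed CUUUGGU, mir-9b and mir-9c, lay in a cluster in grp whose nearest summit was 11015 bp away. At mir-263b, which protects sense organs from cell death, the summit 1302 bp upstream was among the weakest of the list (rank 5025; 6823 and 4602 in the replicates). For mir-7, which stabilises photoreceptor and sensory cell fates and lies in an intron of HnRNP-K, the summit at 2661 bp ranked 3255 but differed between replicates, at rank 1515 and 8708. The list of 8 neural and sensory hairpins leaves out mir-92a and mir-92b, described next, which both had a summit within 1 kb. None of the 8 had a summit within 1 kb, against 8.08% of all hairpins. Within 5 kb 5 of the 8 did, at 4 loci, against 35.4% of all hairpins. Among the 3 without, mir-124, the neuronal microRNA, had its nearest 16696 bp away and mir-137 26650 bp away.

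The neuroblast microRNAs mir-92a and mir-92b lie with jigr1, which is expressed with them in neural stem cells. An intronic summit at 25647057 on chr3R ranked 344 (signal 798), with ranks 304 and 375 in the replicates. It lay 457 bp downstream of mir-92a, 4341 bp upstream of mir-92b and 189 bp upstream of an internal jigr1 TSS. Its window, shown above, holds 1 match to TTTATTG on the minus strand. A weaker summit 24 bp upstream of another jigr1 TSS ranked 3613 (2631 and 5040). The remaining one, 799 bp downstream of mir-92b, ranked 1989 (1667 and 2558) and lay outside genes. The seed AUUGCAC of both hairpins is shared with 4 hairpins of the mir-310 cluster. All 6 were within 5 kb of an IDR summit, at 2 loci, and the 4 of the mir-310 cluster shared a single summit of rank 2484, at 1997 bp from the cluster.

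Growth and cell death genes had 1 of 3 hairpins within 5 kb, against 35.4% of all hairpins. Bantam, which promotes growth and represses the proapoptotic gene hid, lay between a pair of summits. The one 2021 bp downstream, outside genes, ranked 1084 (signal 441), at 2391 in replicate 1 and 766 in replicate 2. The one 1456 bp upstream, in an exon of the bantam transcript CR43334, ranked 1753 (2269 and 1731). A weaker pooled summit lay 407 bp away (rank 8226) with counterparts at 569 bp in replicate 1 and 334 bp in replicate 2, and did not enter the IDR list. For mir-14, a suppressor of cell death, the nearest IDR summit was strong (rank 39) but 6556 bp away, with a pooled summit of rank 6058 at 272 bp. The nearest to mir-278, an energy homeostasis microRNA, was 17850 bp away.

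The K box family shares the seed AUCACAG, carried by 14 hairpins at 7 loci, mir-5 among them. Of the 13 listed as the family, without mir-5, none had a summit within 1 kb, against 8.08% of all hairpins. Within 5 kb were 7 of the 13, against 35.4% of all hairpins. These 7 fell at 3 loci. The hairpins mir-2a-2, mir-2a-1 and mir-2b-2 lie in an intron of spi, which encodes the EGF receptor ligand Spitz. Their nearest summit (rank 4789; 4848 and 5463) was 1087 bp from mir-2b-2 in the same intron. Stronger summits followed at 2635 bp (rank 2585; 5782 and 1921) and 4948 bp (rank 2413; 1069 and 3559), and a summit of rank 160 stood 209 bp from a spi TSS. The summit near mir-13b-1, mir-13a and mir-2c, 1100 bp from mir-2c, ranked 4093 and was the only one of the 102 distinct summits within 5 kb with no partner in either replicate. For mir-11, in the E2f1 gene whose apoptotic function it limits, the summit at 2570 bp ranked 2261 (2219 and 2313) and lay 606 bp upstream of a TSS of InR, the insulin receptor gene. Of the 6 without, mir-13b-2 and mir-2b-1 had their nearest at 8459 and 7556 bp.

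Metabolic, ageing and hormone related hairpins numbered 7. Of these 3, at 2 loci, had a summit within 1 kb, against 8.08% of all hairpins. Within 5 kb were 5 of the 7, against 35.4% of all hairpins. At this small number the interval of the 1 kb share of the 7 ran from 15.8 to 75.0%. The role lists were chosen with earlier results of these data known, so these counts do not describe a trait of the class. The mir-275 and mir-305 hairpins, the latter known for linking nutrition to intestinal stem cells, were flanked by summits of similar rank. The upstream one (rank 3194; 3569 and 3244) lay 460 bp from mir-275 in an exon of its transcript CR43857. The downstream one (rank 3391; 5066 and 3048) lay 580 bp from mir-305 and 242 bp upstream of a TSS of muc. That window, shown above, holds TAATTA and Motif 1.

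At mir-8, which controls body growth through insulin signalling and represses Wingless signalling, 3 IDR summits lay within 5 kb. One lay 520 bp downstream (rank 3306; 3113 and 3823) and one 880 bp upstream (rank 3909; 2458 and 4904), both in exons of the transcript CR43650 and the second 137 bp upstream of one of its TSS. The remaining one was 3053 bp upstream (rank 3616), at ranks 8396 and 2860. For mir-33, which lies in an intron of SREBP, the sterol regulatory factor, and acts in lipid metabolism, a summit of rank 1187 (1058 and 1301) lay 617 bp inside the host's TSS and 3409 bp from the hairpin. A second (rank 2703; 2650 and 2884) lay 103 bp upstream of the SREBP TSS, and its window holds TTTATGG. The summit 3383 bp upstream of mir-317 ranked 1969 but 6052 and 1521 in the replicates, and mir-277 and mir-34, at the other end of the same locus, were 12279 and 13193 bp from it.

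The highest ranked summit within 1 kb of any hairpin belonged to mir-282. It ranked 257 (signal 883; 354 and 248 in the replicates), 768 bp upstream of the hairpin in an exon of the transcript CR43626 and 340 bp upstream of one of its TSS. A summit of rank 5004 stood 2079 bp upstream. At mir-375, whose mouse counterpart acts in insulin secretion, a summit of rank 1639 (1898 and 1695) lay 699 bp upstream and 560 bp upstream of the start of its host transcript CR45345. For both microRNAs the summit thus stood upstream of a start of the annotated primary transcript, as at mir-279.

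Apart from mir-303 and mir-982, described below with the testis clusters, the remaining hairpins within 1 kb are named here without a role. For mir-4981 the summit 861 bp upstream ranked 411 (364 and 437), 633 bp upstream of a CG14762 TSS. In the intron of Tis11, a zinc finger gene of messenger RNA decay, mir-9377 had a summit of rank 698 (673 and 747) at 369 bp and one of rank 241 at 1350 bp. The mir-2491 hairpin, in an intron of fog, had its summit at 122 bp (rank 1804; 3501 and 1451). At mir-4942 the summit fell inside the hairpin, at rank 2462, and 97 bp upstream of a TSS of ND-MLRQ, a respiratory complex I gene. Replicate 2 had its partner at rank 2286, while the replicate 1 summit inside the hairpin, rank 2937, was more than 100 bp away. Of these 4, then, mir-4981 and mir-9377 had the closest ranks in the 2 replicates.

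Several of these summits stood at promoters of neighbouring or host genes. The summit near mir-4911 (rank 2730) lay 105 bp upstream of a TSS of its host ND-23, another complex I gene, and the one near mir-4949 (rank 4065; 2402 and 6455) 257 bp upstream of a TSS of its host ATPsynC, an ATP synthase gene. The summit at mir-9380 (rank 2319) lay 187 bp upstream of a TSS of Atg13, an autophagy gene, and that at mir-4985 (rank 4813; 9572 and 4326) 471 bp upstream of a TSS of its host Fatp3. For mir-2496 a pair of summits, ranks 1654 and 3557, lay 259 bp upstream of a PIG-K TSS and 132 bp upstream of the CR45478 TSS. The higher ranked one had a partner in replicate 2 only. The summits at mir-9378 (rank 2042, a partner in replicate 2 only), mir-4968 (rank 4225; 6466 and 3910) and mir-2493 (rank 4669; 3032 and 6320) lay in introns of their hosts.

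**Figure D4:**
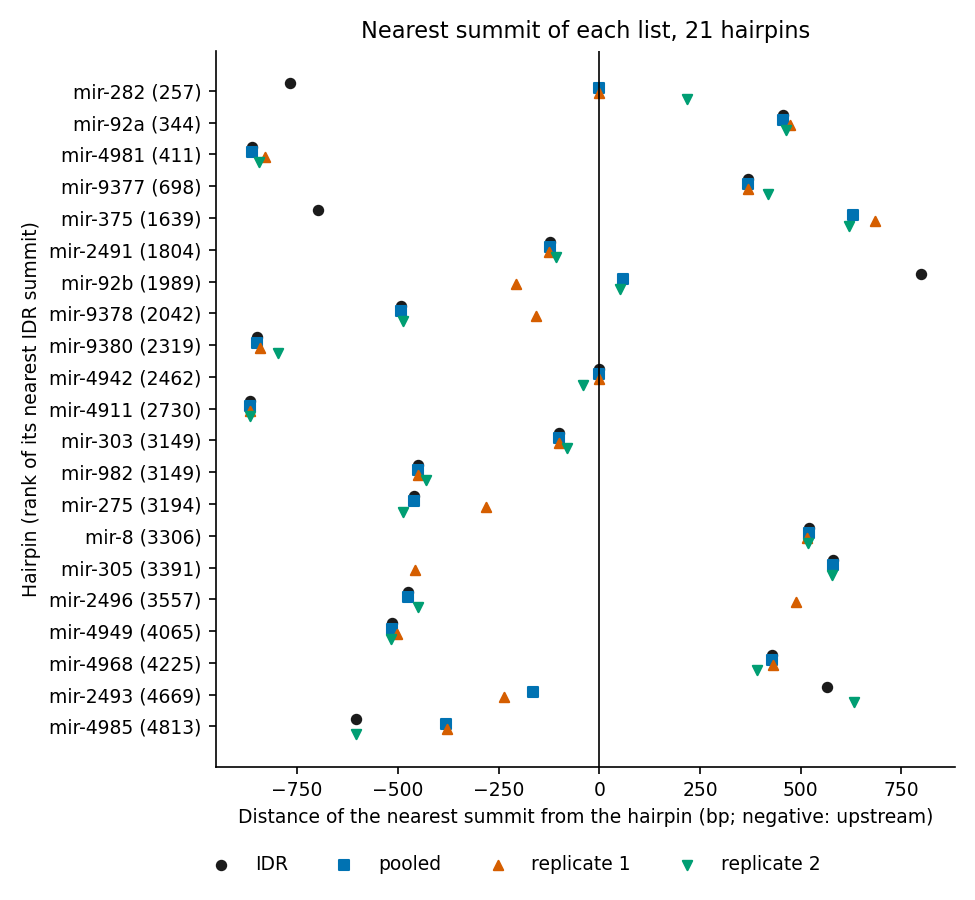
Signed distance in bp from each of the 21 hairpins with an IDR summit within 1 kb to the nearest summit of each list; negative is upstream, and hairpins are ordered by the rank of that IDR summit, given in brackets. For 16 hairpins the nearest pooled summit is the IDR summit; for the other 5, such as mir-282, a weaker pooled summit lies nearer.

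Around the 21 hairpins the nearest summit lay upstream in 13 cases, downstream in 7 and inside the hairpin in 1. For the 92 hairpins within 5 kb these counts were 63, 28 and 1. Hairpins that share a summit are each counted, and no like count was made for other genes. A hairpin with a host on its own strand has the first TSS of that host upstream. Of 62 such hairpins with a summit within 5 kb, 33 had one within 1 kb of a host TSS. The part of host starts in these sides was not tested. The members nearest to the 1 kb limit were mir-4911, inside it at 868 bp, and mir-2b-2, outside it at 1087 bp. At the 5 kb limit they were mir-2281 at 4989 bp and mir-252 at 5126 bp. Of the 92 hairpins 64 had 1 summit within 5 kb, 19 had 2, 7 had 3 and 2 had 4.

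Hairpins within 5 kb of the highest ranked summits, beyond those named, differed in where the summit lay. Some had it at a promoter of the host, and others did not. Of all IDR summits 48.5% lay within 500 bp of a TSS of a gene other than a microRNA. The intronic hairpin mir-2283 had one of rank 137 (99 and 179) at 1546 bp, 29 bp upstream of the TSS of its host Kdm3, a histone demethylase gene. For mir-9382 a summit of rank 141 (187 and 122) lay 210 bp upstream of a TSS of MRP, a transporter gene, and for mir-9383 one of rank 323 (306 and 349) lay 104 bp from the TSS of CG12241. At mir-4943 the summit ranked 381 (331 and 392), 389 bp from a TSS of CG5953, and at mir-4972 it ranked 547 (1111 and 431), 400 bp from a TSS of for, the foraging protein kinase gene. The summit at mir-955 (rank 657; 734 and 642) lay 82 bp from a TSS of CG14968, which is not a host. In these 6 cases the summit lay 1546 to 4775 bp from the hairpin. Hairpins within 1 kb of a summit were named earlier, so a distance over 1 kb follows from the selection. Others had no host TSS near the summit. At mir-1006 (rank 734), mir-2501 (rank 765) and mir-1004 (rank 790) the summit lay 3948, 4907 and 3703 bp from the hairpin. From the nearest host TSS these summits were 6979, 5716 and 5082 bp away. TSS of other genes do not enter these distances.

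Mirtrons are short introns that are spliced and folded directly into precursors. Of all hairpins 35.4% lay within 5 kb of a summit and 8.08% within 1 kb. Among the 14 mirtrons 7 lay within 5 kb and none within 1 kb. The best ranked summit near one (rank 734; 965 and 662) lay 3948 bp from mir-1006, in an intron of the neighbouring gene Cyt-c-p. Those of mir-1007 and mir-1008 were 10297 and 5672 bp away. The testis expressed clusters had 2 of 19 hairpins (10.5%) within 1 kb, mir-303 and mir-982, and 7 (36.8%) within 5 kb. All 5 hairpins of the mir-982 locus lay within 5 kb of the same summit (rank 3149; 3005 and 3368), 101 bp upstream of mir-303 and 68 bp upstream of a CG3626 TSS. In the mir-972 cluster 2 of 12 hairpins, mir-979 and mir-978, lay 3964 and 4568 bp from a summit of rank 909 (1034 and 887). That summit stood at the car promoter and 131 bp from a TSS of Grip84, which holds both hairpins on its opposite strand. The mir-959 cluster, mir-959 and mir-960 included, had its nearest 30667 bp away.

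Several well known clusters lay outside the 5 kb window. The let-7 complex, which acts at the transition to the adult, had a summit of rank 450 at 5174 bp from mir-125 and 6065 bp from mir-100, listed at ranks 441 and 467 in the replicates. The mir-309 cluster, which clears maternal messages, had none nearer than 8148 bp from any of its 8 hairpins, and mir-286 and mir-3 were 8401 and 8259 bp from the same summit of rank 3369. The muscle microRNAs mir-1 and mir-133 had theirs at 7290 and 21907 bp. For mir-1 a weak pooled summit stood 143 bp away at rank 10248, at ranks 5926 and 22285 in the replicates. Of the 22 loci with 2 or more hairpins, 12 (54.55%) had at least 1 hairpin within 5 kb, against 34.98% of all loci. Within 1 kb were 3 (13.64%), those of mir-275, mir-92a and mir-982, against 8.867% of all loci. A locus counts when any of its hairpins is near, and the part of its size in these shares was not tested.

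Host genes numbered 188, and 73 of them (38.8%) had a TSS no more than 1 kb from an IDR summit. Hosts that share a start, such as Kdm3 and CG8176, were each counted. Among noncoding hosts the count was 9 of 40 (22.5%), and no like share was made for all noncoding genes. Among protein-coding hosts it was 64 of 148 (43.2%), against 25% of all protein-coding genes. Coding hosts were long, with a median of 14201 bp against 2166 bp for all protein-coding genes, and had a median of 2 TSS against 1, and the part of length and of TSS number in this share was not tested. The best ranked host summit, rank 22, lay 203 bp from a TSS of msi, the gene of the RNA binding protein Musashi, which holds mir-1000 on its opposite strand. Next came those already given for CR31044, Kdm3, MRP and spi, and then PAPLA1 (rank 200), the host of mir-4984. Of the 62 hairpins with a host on their own strand and a summit within 5 kb, 33 had such a summit within 1 kb of a host TSS, and of the 14 with a summit within 1 kb, 7 did. Hairpins that share a summit were each counted here, and no like share was made for other genes.

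The summits themselves numbered 22 within 1 kb and 102 within 5 kb, since some hairpins share them. A TSS of a gene other than the microRNA lay within 500 bp of 12 of the 22 (54.5%) and of 63 of the 102 (61.8%), against 48.5% of all IDR summits. Their ranks ran from 257 to 4813 with a median of 2596 within 1 kb, and from 109 to 5025 with a median of 2436 within 5 kb, close to the median of 2517 in the whole list. The 1000 strongest summits contributed 4 of the 22 and 20 of the 102.

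Partners within 100 bp in both replicate lists were found for 19 of the 22 summits (86.4%) and 92 of the 102 (90.2%), against 92.1% of all IDR summits. All 22 had a partner in replicate 2 and 19 in replicate 1. The 3 without one in replicate 1 were those of mir-9378 and mir-4942 and the higher ranked one of mir-2496. Ranks in the replicates ranged from close, such as 2219 and 2313 at mir-11, to far apart, such as 9572 and 4326 at mir-4985, and a summit of rank 790 near mir-1004 had no partner in replicate 2.

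**Figure D5:**
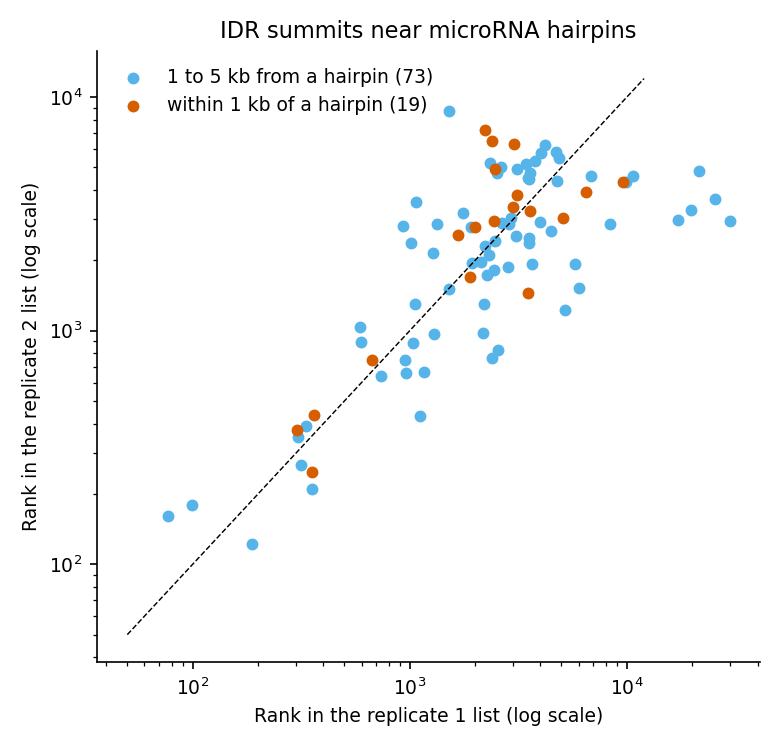
Rank in the replicate 1 list against rank in the replicate 2 list, both on log scales, for the IDR summits near hairpins that have a partner in both, 19 within 1 kb (orange) and 73 from 1 to 5 kb (blue); the dashed line marks equal ranks. The highest ranked summit, that of mir-279 and mir-996, stands at 77 and 161.

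Beyond the IDR list, 57 hairpins had a pooled summit within 1 kb and no IDR summit there, and 30 had a summit within 1 kb in both replicate lists without an IDR summit. Those with one in the pooled and both replicate lists included mir-9384 in tacc (615 bp, pooled rank 5717), mir-4962 in Tlk (178 bp, rank 6080), mir-985 (857 bp, rank 6206) and mir-308 in the ribosomal protein gene RpS23 (764 bp, rank 7752). Their −log10 q in the pooled list was 1.72, 1.56, 1.51 and 0.953. By q-value the first 3 pass 0.05 and mir-308 does not, and each is weaker than every peak of the IDR list.

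Motif matches within 100 bp of the summits were counted on both strands. The Abd-B form TTTATGG occurred at 3 of the 22 summits within 1 kb and 12 of the 102 within 5 kb, against 7.77% of all IDR summits. For TTTATTG the counts were 1 and 10, against 12.2%. Either form was present at 4 of 22 (18.2%) and 21 of 102 (20.6%), against 19.2%. The Hox core TAATTA occurred at 8 (36.4%) and 24 (23.5%), against 19.5%. Among promoter motifs, that of DREF, TATCGATA, occurred at 0 and 5 (all summits 4.09%), Motif 1, GGTCACAC, at 2 and 2 (2.64%), and GAGAG, the GAGA factor core, at 3 and 22 (20.1%). TAATTA and TATCGATA read the same on both strands, and the 3 Hox motifs cannot share bases with each other. GC content over the same windows was 36.4% (SD 7.52) for the 22, 36.0% (SD 8.28) for the 102 and 34.9% (SD 7.25) for all IDR summits, so the summits near hairpins had about the base composition of the rest.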

How the data were processed

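ChIP-seq peak lists of 2 biological replicates of 1 group were used, on genome build dm6 per the labels. For the aligner and the peak caller, names are not given in the sources used. Each deposited list gives, for every peak, a summit, a signal value whose scale is not stated and the −log10 of a q-value, as the authors made them. The full lists hold 30000 peaks each and the IDR list 5033, with signal from 152.7 to 5202 and −log10 q from 2.025 to 3.816. No read counts were given, so depth is unknown. No value column lacked a sample or list.

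Hairpins and other genes came from Ensembl release 115 (annotation version 6.54), in which 485 mature products listed as genes of their own were left out. Sequences were read from the RefSeq Release 6 genome, of the same build. Distance ran from the summit to the nearest base of the hairpin, and peaks were ranked within a list by signal. Hairpins on 1 strand no more than 10000 bp apart formed a locus. A partner was a summit within 100 bp in a replicate list. Shares carry 95% Wilson intervals, which cover counting only and treat hairpins of a locus as independent. With 1 group there was no contrast and no test. The counting was tested on simulated data (Python 3.11.15, numpy 2.4.6, pandas 2.3.3). Alternatives were stronger peaks only, single replicates, a q-value threshold, whole peaks, loci, other windows and other host rules. The members and role lists were chosen with earlier results of these data known. Named were the hairpins within 1 kb, the 10 further ones within 5 kb of the highest ranked summits, those of the Hox complexes, and for each role list the member with the best ranked summit within 5 kb and the first 2 by name with none; some others named beside these were chosen after their values were seen.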

Additional observations from a re-analysis of the deposited data

How the results depend on the processing

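Restricting the IDR list to its 1000 strongest peaks left 4 hairpins within 1 kb, with 1.458% of bases in that window, and 21 within 5 kb, with 6.683% of bases. It lowered the 5 kb share to 9.091% of hairpins inside genes and to 3.922% of those outside, and the hosts with a summit at a TSS to 25. A 500 bp window held 10 hairpins and 3.618% of bases, a 2000 bp window 38 and 12.61%, and a 10000 bp window 153 and 41.19%. Windows and list length change these counts by construction. Taking as many of the strongest peaks from a single replicate gave 20 hairpins within 1 kb for either replicate, 89 to 93 within 5 kb and 76 to 77 hosts. Those lists gave 34.45% to 34.93% of hairpins inside genes and 33.33% to 39.22% of those outside within 5 kb. Of the 21 hairpins within 1 kb, 17 were also within 1 kb in both such lists; mir-4985 and mir-4968 were missing from that of replicate 1, and mir-2493 and mir-4949 from that of replicate 2. The other alternatives gave 25 and 105 hairpins within 1 and 5 kb with pooled peaks at a q-value of 0.05 or less, 26 and 93 with whole peaks, and 59 hosts with the most upstream TSS alone. No paired analysis was possible because the study has 1 group. The lists hold no read counts, so a hairpin with no summit nearby is not shown to lack binding.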
